A study of Mus musculus with 6 samples.

Results

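The CCAAT/enhancer binding proteins (C/EBPs) were followed in inguinal white adipose tissue (iWAT), the subcutaneous fat of the groin, from mice that delete *Cebpa* in adipocytes. The members were taken by gene symbol, with earlier results of these data known, and are *Cebpa*, *Cebpb*, *Cebpd*, *Cebpe*, *Cebpg*, *Cebpz* and *Ddit3*. They are 7 of the 36144 symbols in the deposited gene table, and edgeR's low-count filter kept all 7 among the 16069 genes tested. Bulk mRNA was sequenced from 3 Cebpa_fl/fl and 3 Cebpa_ASKO females, 10 weeks old, of C57BL6/J background and fed ad libitum, with both inguinal depots of a mouse joined and their lymph nodes removed. Both genotypes carry the floxed *Cebpa* allele, and Cebpa_ASKO mice also carry AdipoQ-Cre, which Cebpa_fl/fl controls lack. The adiponectin promoter drives Cre late in adipocyte differentiation, so cells of the depot that do not express Cre would keep *Cebpa*. Whole-tissue RNA holds all cells of the depot, and *Cebpa* was not measured by cell type. Each library summed to between 33141769 and 49477671 estimated counts. Levels are given as TPM, a share of transcripts corrected for length, and differences come from edgeR's quasi-likelihood test on estimated counts, where a gene was called at a Benjamini-Hochberg adjusted p below 0.05.

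C/EBP proteins bind DNA in pairs through a basic region and a leucine zipper (bZIP), and members can pair with one another. In preadipocytes that are induced to differentiate, C/EBPβ and C/EBPδ appear early and precede C/EBPα, which together with PPARγ sustains the genes of the mature fat cell. C/EBPγ and CHOP, the product of *Ddit3*, pair with other members and can hold back their activity, whereas C/EBPε acts in granulocytes. *Cebpz* shares the family's name, but its protein has no bZIP segment and is known from the nucleolus and ribosome assembly.

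Of the 7 members, 1 was called lower and 1 was called higher in Cebpa_ASKO iWAT. *Cebpa*, the deleted gene, fell to 8.94% of the control mean in TPM, and *Cebpg* rose 2.91-fold in TPM. The other 5 members were not called. Among all 16069 genes tested, edgeR called 3.84% lower and 1.39% higher. In CPM, counts scaled by library size and TMM factor, 3 members lay higher and 1 lower in every Cebpa_ASKO library than in any control, against 12.9% and 13.2% of all genes tested in these directions. The genotype means of *Cebpg* differed 2.56-fold in CPM, whose scaling the edgeR test used. The median log2 fold change of the 7 members was 0.46, beside 0.02 for all genes tested. DESeq2, run as an alternative, called 3 members higher and 1 lower, against 3.72% and 6.33% of its genes. In whole tissue, fewer cells of a type and less RNA per cell cannot be told apart.

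**Figure D1:**
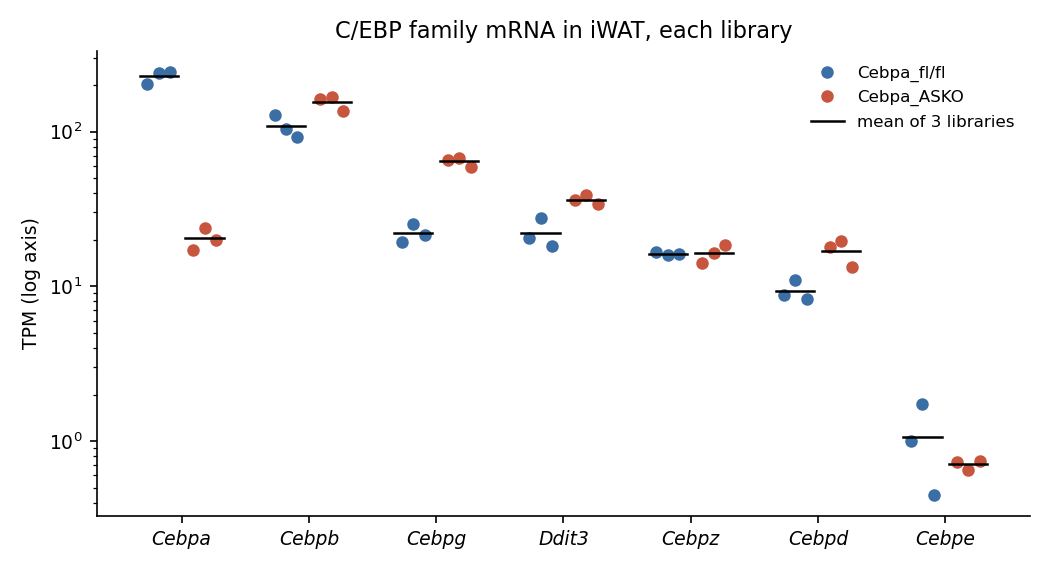
TPM of each C/EBP family member in each of the 6 iWAT libraries on a log axis, with Cebpa_fl/fl in blue, Cebpa_ASKO in red and a black line at the mean of 3 libraries. The 3 red points of *Cebpa* lie far below its blue points, those of *Cebpg* lie above, and those of *Cebpz* and *Cebpe* overlap the controls.

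*Cebpa* stood at 204, 238 and 243 TPM in the 3 Cebpa_fl/fl libraries and at 17.3, 23.9 and 20.1 TPM in the 3 Cebpa_ASKO libraries. The lowest control library was thus far above the highest Cebpa_ASKO library, and the libraries within a genotype were close to one another. The edgeR log2 fold change was -3.55 (SE 0.131, adjusted p = 0.000163), the gene with rank 4 by p among all tested. *Cebpa* was called in 17 of 18 settings. With the skeletal muscle share of each library as a covariate, its log2 fold change was -4.00 and was not called (edgeR adjusted p = 0.107). *Cebpa* lies on chromosome 7 of GRCm38 from 35119293 to 35121928 on the plus strand. Its main transcript, Cebpa-201, is a single exon of 2626 bases and carried between 96.3% and 100% of the gene's TPM in each library. The spliced Cebpa-202 was estimated at 1.63, 1.99 and 0.854 TPM in the controls, and in Cebpa_ASKO it was listed at 0 in replicates 1 and 2 and at 0.737 TPM in replicate 3. Reads that fit both transcripts are divided by estimate, so the minor form is less certain than the gene sum.

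The RefSeq promoter table holds windows for 4 of the 7 members, namely *Cebpa*, *Cebpb*, *Cebpg* and *Ddit3*. The 250 bases before the annotated start are shown for *Cebpa* and *Cebpg*, the members that changed, since both lie on chromosome 7 with 62719 bases between the genes. They read 5′ to 3′ on the gene's own strand (GRCm38.p6, *Cebpa* chr7:35119043-35119292, plus strand, and *Cebpg* chr7:35056567-35056816, minus strand). Capitals mark TTGCGCCA and TATAAA in *Cebpa*, and ATTGG, which is CCAAT read on the other strand, in *Cebpg*.
Cebpa: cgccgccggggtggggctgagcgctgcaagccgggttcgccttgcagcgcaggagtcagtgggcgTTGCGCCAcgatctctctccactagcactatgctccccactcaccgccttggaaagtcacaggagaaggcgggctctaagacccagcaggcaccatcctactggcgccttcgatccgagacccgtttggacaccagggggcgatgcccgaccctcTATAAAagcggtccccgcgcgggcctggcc
Cebpg: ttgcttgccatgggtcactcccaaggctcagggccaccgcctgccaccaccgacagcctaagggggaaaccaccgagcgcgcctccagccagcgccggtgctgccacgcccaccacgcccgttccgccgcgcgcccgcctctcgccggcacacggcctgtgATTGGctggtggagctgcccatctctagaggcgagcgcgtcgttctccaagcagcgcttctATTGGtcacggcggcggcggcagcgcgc
Neither strand of any of the 4 windows held the C/EBP palindromes TTGCGCAA or TTGCACAA, which 1.06% of all 32851 windows held, nor the looser TTGCNNAA, which 9.56% held. Further letters were searched after the windows had been read. TTGCNNCA, a core with another last step, was found in *Cebpa* between 178 and 185 bases before the start, and in 9.59% of all windows. A TATA box (TATAAA) was found in *Cebpa* 25 to 30 bases before the start, and in 12.4% of all windows. CCAAT was found at 2 places in *Cebpg* and once in *Ddit3*, and in 33.8% of all windows. The *Ddit3* window also held the AP-1 letters TGACTCA, 236 to 242 bases before its start, as did 4.46% of all windows, and TGACGTCA, the cAMP response element, was in none of the 4 and in 1.55% of all. GC content was 66.4% in the *Cebpa* window, 70.8% in *Cebpg*, 81.6% in *Cebpb* and 64.8% in *Ddit3*, against a median of 52.4%.

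*Cebpb* and *Cebpd* encode the early members of the adipogenic sequence. *Cebpb* stood at 128, 104 and 91.8 TPM in Cebpa_fl/fl and at 161, 168 and 135 TPM in Cebpa_ASKO. These TPM values did not overlap, but in CPM they did, with 153 in the highest control and 136 in the lowest Cebpa_ASKO library. The log2 fold change of 0.46 (95% confidence interval -0.01 to 0.92) was not called (edgeR, adjusted p = 0.257), nor was it by DESeq2 (adjusted p = 0.221). *Cebpd* stood at 8.75, 11 and 8.34 TPM in Cebpa_fl/fl and at 17.8, 19.6 and 13.3 TPM in Cebpa_ASKO. Every Cebpa_ASKO library was above every control, with replicate 3 the nearest to them. Its log2 fold change of 0.81 (95% confidence interval 0.36 to 1.26) missed the threshold in edgeR (adjusted p = 0.0650) and passed it in DESeq2 (adjusted p = 0.00366). Without Cebpa_ASKO replicate 3 it was 0.97 and passed in edgeR as well (adjusted p = 0.0171), whereas it was 0.70 without Cebpa_ASKO replicate 1 or 2, with an adjusted p of up to 0.224. With the skeletal muscle share of each library as a covariate it was 0.034 (edgeR adjusted p = 0.998).

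Both genes are read from a single main exon that meets another gene on the opposite strand. *Cebpb* on chromosome 2 shares 312 of its 1504 exon bases, or 20.7%, with *Tmem189*. *Cebpd* on chromosome 16 shares 562 of 3746, or 15%, with *Spidr*. Whether strand was used in counting is not given in the sources used here, so reads of these stretches cannot be assigned with certainty. *Tmem189* lay between 34.3 and 44.6 TPM in controls and between 30.9 and 43.3 TPM in Cebpa_ASKO, and *Spidr* between 4.16 and 6.30 TPM and between 4.62 and 6.53 TPM. Both neighbours overlapped between the genotypes.

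*Cebpg* and *Ddit3* encode partners that lack the usual activation domain or bind DNA poorly as pairs. *Cebpg* stood at 19.4, 25.2 and 21.5 TPM in Cebpa_fl/fl and at 65.5, 67.7 and 59.0 TPM in Cebpa_ASKO. The lowest Cebpa_ASKO library was far above the highest control, and both groups were tight. The log2 fold change was 1.36 (SE 0.135, 95% confidence interval 1.03 to 1.68, edgeR adjusted p = 0.00316), and it ranged from 1.25 to 1.45 with any 1 library left out, with an adjusted p of at most 0.0226. *Cebpg* was called in 17 of 18 settings. The exception took the skeletal muscle share of each library as a covariate, where the log2 fold change was 1.02 (adjusted p = 0.799). That share did not overlap between the genotypes either. In this fit *Cebpa*, at a log2 fold change of -4.00 (edgeR adjusted p = 0.107), was not called, and no gene of the table was called by edgeR.

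*Ddit3* encodes CHOP, which is induced in the unfolded protein response. It stood at 20.4, 27.5 and 18.1 TPM in Cebpa_fl/fl and at 36.3, 38.8 and 34.0 TPM in Cebpa_ASKO. The genotypes did not overlap, and control replicate 2 was the highest of its group. The log2 fold change of 0.66 (95% confidence interval 0.28 to 1.04) missed the threshold in edgeR (adjusted p = 0.0703) and passed it in DESeq2 (adjusted p = 0.00842). Without control replicate 2 it was 0.78 and passed in edgeR (adjusted p = 0.0402), whereas without control replicate 3 it was 0.53 (adjusted p = 0.126). With the muscle share as a covariate it was 0.32 (edgeR adjusted p = 0.998). A second gene identifier with the same symbol, transcript Ddit3-204 of 105 bases, was listed at 0 in all 6 libraries.

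**Figure D2:**
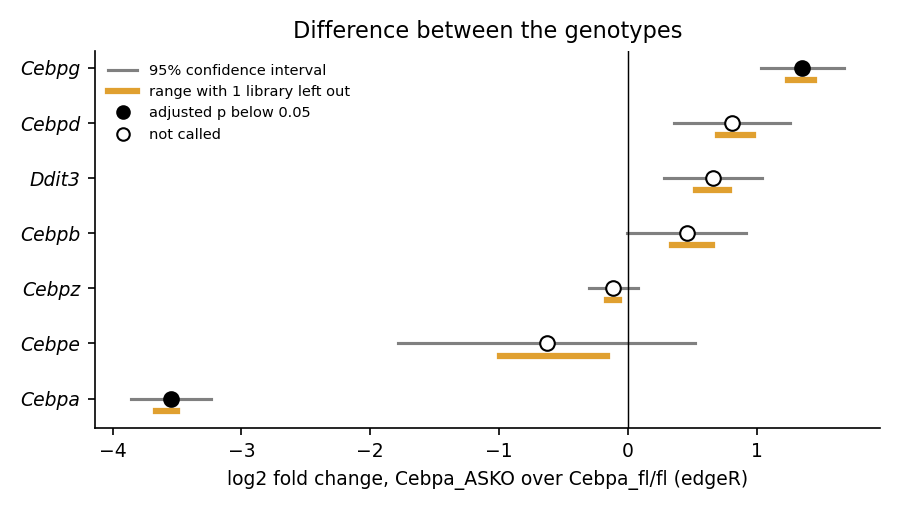
The edgeR log2 fold change of Cebpa_ASKO over Cebpa_fl/fl for the 7 members, with grey bars for the 95% confidence interval and orange bars for the range when 1 library is left out. Filled points mark *Cebpa* at -3.55 and *Cebpg* at 1.36, the called members, and the intervals of *Cebpb*, *Cebpz* and *Cebpe* include 0.

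The transcripts of *Cebpg*, which lies on chromosome 7 from 35046422 to 35056573 on the minus strand, did not move in equal measure. Cebpg-202, a coding form of 4709 bases, carried most of the gene's TPM in every library, with 17.2, 22.5 and 19.5 TPM in controls and 53.8, 54.0 and 45.6 TPM in Cebpa_ASKO. Cebpg-201, a shorter coding form of 914 bases, stood at 0.998, 2.15 and 1.04 TPM in controls and at 9.51, 10.6 and 7.59 TPM in Cebpa_ASKO. Its share of the gene's TPM was 5.15%, 8.54% and 4.85% in controls and 14.5%, 15.6% and 12.9% in Cebpa_ASKO, with no overlap. Behind these shares were 29.5, 59.7 and 30.3 estimated counts in controls and 197, 237 and 190 in Cebpa_ASKO. These are a description without a test, since kallisto divides the reads that both forms could give.

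**Figure D3:**
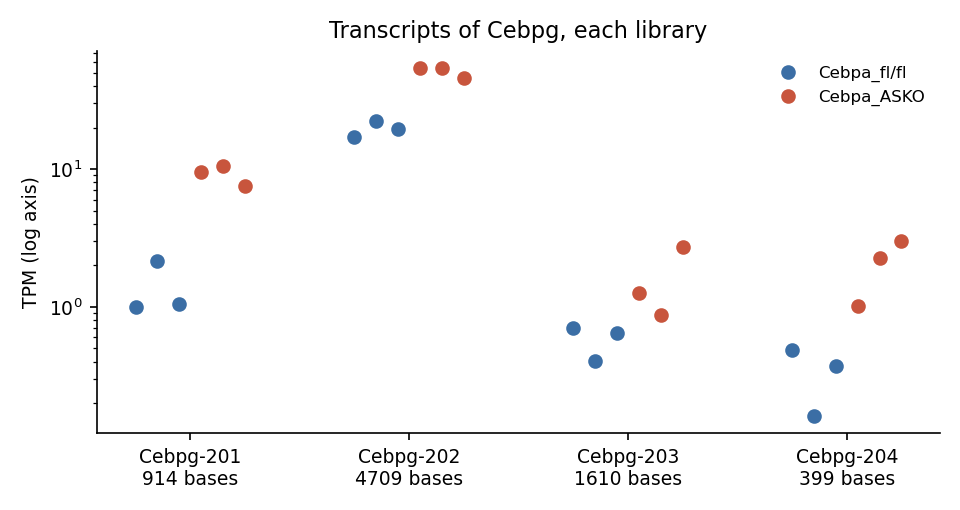
TPM of the 4 deposited *Cebpg* transcripts in each library on a log axis, with Cebpa_fl/fl in blue and Cebpa_ASKO in red and the transcript length under each name. Cebpg-202 is the highest form in all 6 libraries, and the red points of Cebpg-201 at 7.59 to 10.6 TPM lie above its blue points at 0.998 to 2.15 TPM.

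*Cebpe* and *Cebpz* were not called. *Cebpe*, the granulocyte member, stood at 1.00, 1.75 and 0.452 TPM in Cebpa_fl/fl and at 0.736, 0.647 and 0.748 TPM in Cebpa_ASKO, from 19 to 70 estimated counts a library. The genotypes overlapped, and the log2 fold change of -0.63 had a 95% confidence interval from -1.78 to 0.53 (edgeR, adjusted p = 0.550). It was -0.16 without control replicate 2 and -0.99 without control replicate 3, and not called in either case. *Cebpz* stood at 16.6, 15.9 and 16.1 TPM in Cebpa_fl/fl and at 14.2, 16.4 and 18.5 TPM in Cebpa_ASKO. The mean was 16.2 ± 0.376 TPM in controls and 16.4 ± 2.14 TPM in Cebpa_ASKO (SD, n = 3). Its difference of -0.11 on the log2 scale (95% confidence interval -0.30 to 0.08, edgeR adjusted p = 0.500) was near 0 and its sign turned to 0.01 with limma on TPM. Among the members it had the narrowest interval.

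In Cebpa_fl/fl iWAT the order by mean TPM began with *Cebpa* at 228 ± 21.3 TPM and *Cebpb* at 108 ± 18.7 TPM (SD, n = 3). *Cebpg* at 22 ± 2.95 TPM and *Ddit3* at 22 ± 4.87 TPM overlapped in their libraries, and no other neighbours in the order did. *Cebpz* at 16.2 TPM, *Cebpd* at 9.37 ± 1.45 TPM and *Cebpe* at 1.07 ± 0.649 TPM followed. In Cebpa_ASKO iWAT *Cebpb* led with 155 ± 17.5 TPM, before *Cebpg* at 64.1 ± 4.53 TPM, *Ddit3* at 36.4 ± 2.41 TPM and *Cebpa* at 20.4 ± 3.33 TPM (SD, n = 3). *Cebpa* overlapped its next neighbour, *Cebpd* at 16.9 ± 3.25 TPM, which in turn overlapped *Cebpz*. *Cebpe* was last in both genotypes.

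The summed TPM of the 7 members was 398, 423 and 399 in Cebpa_fl/fl and 313, 335 and 280 in Cebpa_ASKO, so that the mean of the knockout was 76.1% of control. No Cebpa_ASKO library reached a control (two-sided exact permutation p = 0.1, the lowest possible with 3 libraries a group, here and in the permutation tests that follow). *Cebpa* made up 51.2%, 56.3% and 60.8% of the sum in controls and 5.51%, 7.13% and 7.15% in Cebpa_ASKO. The share of *Cebpb* was 26.6 ± 4.96% in controls and 49.9 ± 1.72% in Cebpa_ASKO (SD, n = 3, exact permutation p = 0.1). The share of *Cebpg* was 5.40 ± 0.550% and 20.7 ± 0.453%, and that of *Ddit3* was 5.38 ± 1.00% and 11.8 ± 0.306% (SD, n = 3, exact permutation p = 0.1 for each). Because shares of a sum move together, the loss of *Cebpa* alone raises all others. Without *Cebpa*, the other 5 bZIP members summed to 178, 169 and 140 TPM in controls and to 282, 295 and 242 TPM in Cebpa_ASKO, again with no overlap (exact permutation p = 0.1). Within that remainder the share of *Cebpg* was 13.7 ± 2.46% in controls and 23.5 ± 0.752% in Cebpa_ASKO, that of *Cebpb* was 66.3 ± 5.50% and 56.7 ± 0.803%, and that of *Ddit3* was 13.5 ± 2.45% and 13.4 ± 0.606% (SD, n = 3). The first 2 of these shares did not overlap between the genotypes, and the last did.

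**Figure D4:**
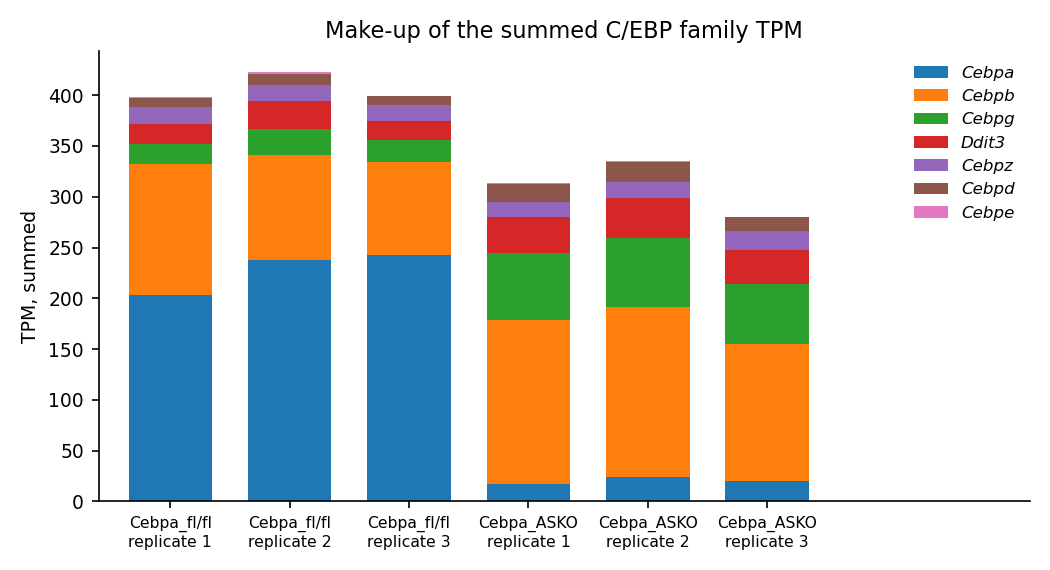
Stacked bars of the TPM of the 7 C/EBP family members in each library, from 0. *Cebpa* (blue) fills 51.2% to 60.8% of the control bars and 5.51% to 7.15% of the Cebpa_ASKO bars, and *Cebpb* (orange) and *Cebpg* (green) fill most of the latter.

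Ratios to *Cebpa* were formed within each library. The ratio of *Cebpb* to *Cebpa* in TPM was 0.630, 0.436 and 0.378 in controls and 9.35, 7.03 and 6.72 in Cebpa_ASKO. That of *Cebpg* to *Cebpa* was 0.0951, 0.106 and 0.0886 in controls and 3.8, 2.83 and 2.94 in Cebpa_ASKO. This ratio was added after the rise of *Cebpg* had been seen, so it is a description without a test. The ratios of *Cebpd* and *Ddit3* to *Cebpa* differed 20.3-fold and 18.7-fold between the genotype means. For *Cebpb*, *Cebpd* and *Ddit3* the genotypes did not overlap (exact permutation p = 0.1 for each), and the fall of *Cebpa* enters every ratio.

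Genes that act around the family were taken as 6 lists of well-known members. Upstream, 18 factors and receptors that induce or sustain C/EBP genes were all tested, and 3 were called lower and 0 higher, beside 3.84% and 1.39% of all genes, with a median log2 fold change of 0.06 beside 0.02 for all genes. *Klf15*, a Krüppel-like factor of the late adipogenic program, fell from 56.5 ± 11.5 to 15.4 ± 2.99 CPM (SD, n = 3 each; log2 fold change -1.88, edgeR adjusted p = 0.00435). *Pparg*, the partner of C/EBPα in fat cells, fell by 0.78 on the log2 scale (edgeR adjusted p = 0.0125), and *Zfp423*, a factor of preadipocyte commitment, fell by 0.55 (edgeR adjusted p = 0.0374). *Il6st*, the gp130 receptor chain, stood at 219 and 232 CPM in the means of controls and Cebpa_ASKO, and *Stat3*, its signalling factor, at 151 and 176 CPM, and neither was called. DESeq2 called 1 of the list higher and 4 lower, beside 3.72% and 6.33% of its genes, and an unadjusted edgeR p below 0.05 was reached by 2 that were higher and 5 that were lower. Among all genes tested, 19.8% reached an unadjusted p below 0.05, 1517 higher and 1668 lower, and the counts at this threshold for each list are to be read against that share. The call of *Zfp423* was lost whenever any 1 library was left out, and without Cebpa_ASKO replicate 1 only *Klf15* of the 3 was still called.

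Related bZIP factors can pair with C/EBP proteins or share their sites. Of 18 listed, 17 were tested, 2 were called higher and 0 lower, beside 1.39% and 3.84% of all genes. In CPM 7 lay above every control in every Cebpa_ASKO library, beside 12.9% of all genes. The median log2 fold change was 0.26, beside 0.02 for all genes. *Jun*, a subunit of AP-1, rose from 57.9 ± 6.78 to 85.7 ± 5.10 CPM (SD, n = 3 each; log2 fold change 0.57, edgeR adjusted p = 0.0341). *Fosl2*, another AP-1 subunit, rose from 44.4 ± 4.01 to 63.6 ± 6.03 CPM (log2 fold change 0.52, edgeR adjusted p = 0.0446). *Atf5*, the most abundant of the list in CPM, stood at 197 ± 4.75 and 287 ± 35.2 CPM and missed the threshold in edgeR (adjusted p = 0.0524), and *Atf4*, a stress factor that pairs with C/EBPγ, stood at 118 ± 13.9 and 141 ± 13.8 CPM (edgeR adjusted p = 0.320). When 1 library was left out, the call of *Fosl2* was lost whichever it was, with an adjusted p from 0.0754 to 0.163, and that of *Jun* was lost in every case but control replicate 2, with an adjusted p from 0.0147 to 0.140. DESeq2 called 4 of the list higher and 0 lower, beside 3.72% and 6.33% of its genes, and an unadjusted edgeR p below 0.05 was reached by 5 of the 17 (29.4%, beside 19.8% of all genes), each of them higher.

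The 26 modulators of C/EBP proteins, which phosphorylate, degrade, translate or bind them, gave no call in edgeR. The median log2 fold change was 0.05, an unadjusted p below 0.05 was reached by 1 gene in each direction, or 7.69% beside 19.8% of all genes, and DESeq2 called 1 higher and 1 lower, beside 3.72% and 6.33% of its genes. *Calr*, which encodes calreticulin and can bind C/EBP transcripts, stood at 578 ± 98.6 CPM in controls and 469 ± 125 CPM in Cebpa_ASKO (SD, n = 3 each). *Trib3*, a pseudokinase that is also a CHOP target, stood at 7.85 ± 1.45 and 13.2 ± 2.51 CPM (edgeR adjusted p = 0.0992).

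Downstream, 10 of 18 adipocyte genes known as C/EBPα targets were called lower and 0 higher, beside 3.84% and 1.39% of all genes, with a median log2 fold change of -0.90 beside 0.02. Besides *Pparg*, they were *Adipoq*, *Retn*, *Pck1*, *Insr*, *Lpl*, *Adrb3*, *Cidec*, *Cfd* and *Acsl1*. *Retn*, the hormone resistin, fell from 1112 ± 160 to 1.18 ± 0.830 CPM, and *Adrb3*, the adipocyte β3-adrenergic receptor, from 394 ± 104 to 3.73 ± 0.909 CPM. *Insr*, the insulin receptor, fell from 116 ± 13.6 to 60.9 ± 3.37 CPM (SD, n = 3 each; edgeR adjusted p = 0.00516). *Scd1*, a fatty acid desaturase, was the most abundant and was not called, at 19873 ± 8702 and 35542 ± 8200 CPM, and *Fabp4*, the fatty acid carrier, at 8365 ± 982 and 4608 ± 823 CPM, was called by DESeq2 and not by edgeR (adjusted p = 0.107). *Slc2a4*, the glucose carrier GLUT4, stood at 213 ± 53.4 and 212 ± 34.1 CPM. DESeq2 called 13 of the list lower and 0 higher, beside 6.33% and 3.72% of its genes. At an unadjusted edgeR p below 0.05, 13 were lower and 0 higher, beside 19.8% of all genes in either direction. Of this list, 6 genes also stand among the adipocyte markers.

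Of 18 genes of CHOP and the unfolded protein response, 2 were called lower and 0 higher, beside 3.84% and 1.39% of all genes, with a median of 0.05. *Asns*, asparagine synthetase, fell from 74.5 ± 3.55 to 36.6 ± 6.13 CPM (SD, n = 3 each; log2 fold change -1.03, edgeR adjusted p = 0.00759), and *Sesn2*, a stress-induced inhibitor of TOR signalling, from 18.8 ± 3.10 to 10.4 ± 1.24 CPM (edgeR adjusted p = 0.0295). Both are induced by ATF4 in amino acid shortage. *Sesn2* was called with control replicate 2 left out but with no other library left out. *Hspa5*, the chaperone BiP, at 419 ± 41.2 and 370 ± 56.9 CPM, and *Xbp1*, a factor of the same response, at 216 ± 26.8 and 167 ± 13.1 CPM, were not called. *Ddit3* itself is not on this list. DESeq2 called 1 of it higher and 3 lower, beside 3.72% and 6.33% of its genes, and an unadjusted edgeR p below 0.05 was reached by 1 that was higher and 4 that were lower, or 27.8% beside 19.8% of all genes.

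Of 14 acute-phase and inflammatory targets of C/EBP proteins, 11 were tested, and 3 were called lower and 0 higher, beside 3.84% and 1.39% of all genes, with a median of 0.05. *Orm1*, which encodes the plasma protein orosomucoid, fell from 143 ± 28.3 to 5.58 ± 0.534 CPM, and *Hp*, haptoglobin, from 444 ± 50.4 to 54.2 ± 13.6 CPM (SD, n = 3 each; edgeR adjusted p = 0.000169 and 0.000859). *Orm2*, at 1.66 and 0.109 CPM in the means, is a close copy of *Orm1* and reads can be shared between them. Its edgeR call was lost without control replicate 1 (adjusted p = 0.0753), control replicate 3 (0.0804) or Cebpa_ASKO replicate 2 (0.141). DESeq2 called 3 lower and 0 higher, beside 6.33% and 3.72% of its genes, and an unadjusted edgeR p below 0.05 was reached by 2 that were higher and 3 that were lower, beside 19.8% of all genes. The most abundant members that were not called were *Lcn2* and *Socs3*. *Lcn2*, the iron-siderophore carrier lipocalin 2, stood at 74.0 ± 9.11 and 101 ± 26.0 CPM and was called in 1 of 18 settings. *Socs3*, an inhibitor of cytokine signalling, stood at 42.8 ± 18.1 and 89.8 ± 54.4 CPM. With Cebpa_ASKO replicate 3 left out, edgeR called 4 genes of the list.

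**Figure D5:**
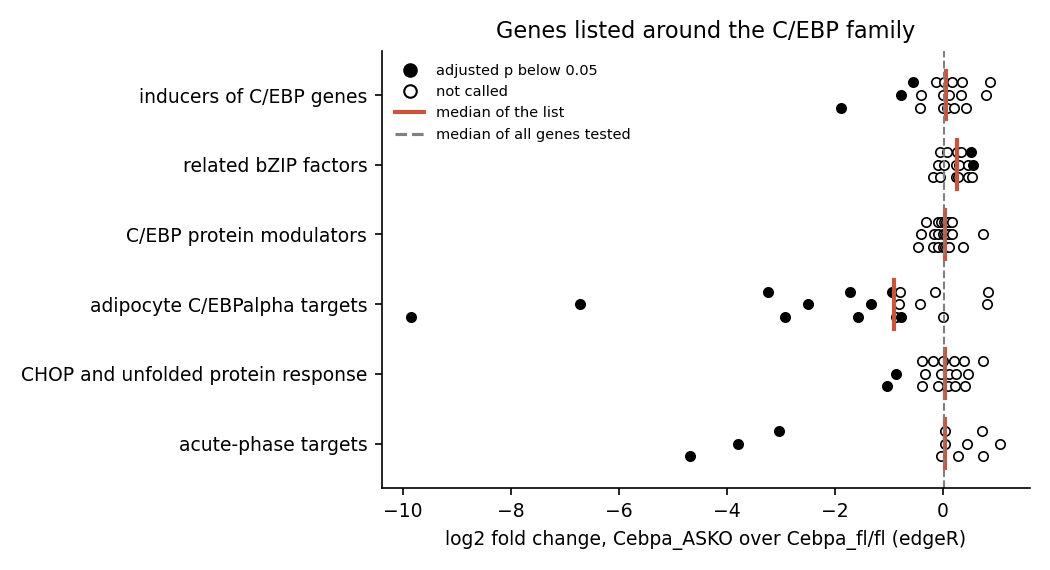
The edgeR log2 fold change of each tested gene in the 6 lists around the C/EBP family, with filled points for called genes, a red bar at the list's median and a dashed line at the median of all genes tested, 0.02. The median of the adipocyte C/EBPα targets lies at -0.90 and that of the related bZIP factors at 0.26, and the other 4 lie between 0.05 and 0.06.

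The genes most like a called member were sought among 12523 genes, leaving out predicted genes (Gm numbers) and Rik clones. The measure was the root mean square difference of log2 CPM over the 6 libraries, after each gene was centred on its Cebpa_fl/fl mean. Nearest to *Cebpa* were *Ppp1r1a*, a regulatory subunit of protein phosphatase 1, at 0.156, then *Gpat3*, an enzyme of triglyceride synthesis, at 0.278, *Serpina3c* at 0.291, *Car5b*, a mitochondrial carbonic anhydrase, at 0.298, and *Nnmt*, nicotinamide N-methyltransferase, at 0.360. *Ppp1r1a* stood at 106, 93.8 and 140 CPM in controls and at 8.40, 11.3 and 9.79 CPM in Cebpa_ASKO. Nearest to *Cebpg* were *Kifc3*, a kinesin, at 0.101, *Zfp949*, a zinc finger gene, at 0.125, and *Rnf128*, a ubiquitin ligase, at 0.157. *Zfp949* stood at 12.5, 13.1 and 13.6 CPM in controls and at 34.6, 36.7 and 32.3 CPM in Cebpa_ASKO. These genes were chosen for their likeness, so their values are a description without a test.

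Cell type markers that moved with genotype are given beside the family, since several cell types of the depot express C/EBP genes, and their part in the results was not tested. The counts for these lists stand beside 1.39% of all genes called higher and 3.84% called lower by edgeR, 3.72% and 6.33% by DESeq2, and 19.8% with an unadjusted edgeR p below 0.05 in either direction. Of 11 adipocyte markers, 6 were called lower and 0 higher by edgeR and 9 lower and 0 higher by DESeq2, as at an unadjusted p below 0.05, and their summed level was 41516, 51783 and 47773 CPM in controls and 14596, 12769 and 12794 CPM in Cebpa_ASKO, with *Cfd* the most abundant. Of 12 skeletal muscle markers, 10 were called higher by edgeR, and the sum was 585, 793 and 665 CPM in controls and 2988, 5659 and 1948 CPM in Cebpa_ASKO, led by the fast myosin *Myh4*. In the same libraries *Cebpg* stood at 71.7, 83.4 and 75.5 CPM in controls and at 225, 199 and 166 CPM in Cebpa_ASKO. Whether its level follows the muscle share was not tested beyond the covariate fit (log2 fold change 1.02, edgeR adjusted p = 0.799). Of 9 tested mammary epithelium markers 0 were called by edgeR and 3 higher by DESeq2, with 6 higher at an unadjusted p below 0.05. Their sum was 848, 593 and 1203 CPM in controls and 1738, 1564 and 1699 CPM in Cebpa_ASKO, led by *Krt8*. Endothelial markers had 2 of 8 called lower by edgeR, *Cldn5* and *Emcn*, 3 lower by DESeq2 and 4 lower at an unadjusted p below 0.05. *Cldn5* was called in 8 of 18 settings and *Emcn* in 6 of 18. The endothelial sums, led by *Pecam1*, were 377, 417 and 454 CPM in controls and 296, 281 and 375 CPM in Cebpa_ASKO. No gene of these lists was at 0 in all 6 libraries.

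Macrophage and fibroblast markers, from cells that also use C/EBP factors, overlapped between the genotypes. The macrophage sum, led by *Lyz2*, was 1753, 3150 and 1192 CPM in controls and 1951, 1967 and 2650 CPM in Cebpa_ASKO, and that of fibroblasts and progenitors, led by *Dcn*, was 5180, 9041 and 4828 CPM and 7039, 6897 and 8142 CPM. In both lists 0 of 10 genes were called by edgeR or by DESeq2, and 0 reached an unadjusted p below 0.05. Lymphocyte markers, led by *Ptprc*, summed to 353 CPM in control replicate 1 and to between 38.0 and 79.7 CPM in the other 5 libraries, with 0 of 7 tested genes called by edgeR, 5 lower at an unadjusted p below 0.05 and 1 lower by DESeq2. Keratinocyte markers summed to between 24.6 and 35.3 CPM, led by *Trp63*, with 0 of 4 tested called by either tool and 1 in each direction at an unadjusted p below 0.05.

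For *Cebpe*, 15 granulocyte genes and neutrophil markers were listed and 9 were tested, of which edgeR called 0 and DESeq2 called 1 higher and 1 lower, with 1 in each direction at an unadjusted p below 0.05. The granule genes differed in level. *Camp* stood at 0.0223 and 0.00748 CPM and *Mpo* at 0.0643 and 0.0544 CPM in the means of controls and Cebpa_ASKO. *Prtn3*, a granule protease, was higher than these, at 29.96, 29.7 and 28.9 CPM in controls and 7.32, 2.91 and 23.6 CPM in Cebpa_ASKO (edgeR adjusted p = 0.312), and *Mmp9*, a matrix protease, stood at 24.2 ± 11 and 20.2 ± 1.98 CPM. *Elane*, neutrophil elastase, stood at 1.66 ± 0.490 and 0.10 ± 0.147 CPM (edgeR adjusted p = 0.0603). It was called lower by DESeq2 (adjusted p = 0.000245) and was called in 5 of the 17 settings that gave it a value. The list's sum, 166, 125 and 246 CPM in controls and 309, 391 and 256 CPM in Cebpa_ASKO, was led by *Ltf*, which encodes lactoferrin and is also made by mammary epithelium. *Ltf* was called higher by DESeq2 (adjusted p = 0.0471) and not by edgeR (adjusted p = 0.206).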

How the data were processed

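The authors deposited, for each of the 6 libraries, the kallisto estimated count, effective length and TPM of every transcript, and one table of TPM summed by gene symbol. The submitters' processing notes name kallisto 0.44.0 and the builds GRCm38.p6 and GRCh38.p12, while strandedness and annotation release are not given in the sources used here. Transcripts were matched to GENCODE M21, which took 98.6% of the 118489 identifiers, and estimated counts were summed by symbol and rounded. Analyses used R 4.3.3, edgeR 4.0.16 (TMM, filterByExpr, glmQLFit and glmQLFTest, Benjamini-Hochberg adjustment), limma 3.58.1, DESeq2 1.42.0, which the paper names, and Python 3.11.15. The deposited effective length served only as an offset in an alternative. The main comparison had no covariate, and the procedure was tested on simulated counts.

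The members and gene lists were chosen with earlier results of these data known. Named genes are the members, and the 5 genes nearest to *Cebpa* and 3 nearest to *Cebpg* of at least 1 mean log2 CPM. Predicted genes (Gm numbers) and Rik clones were left out of that search. The cell type marker lists name their most abundant gene and the called endothelial markers, but not every called gene. In the lists around the family, the called genes and the 2 most abundant that were not called are named. One gene that this rule names among the modulators is not reported here. *Trib3*, *Slc2a4*, *Camp*, *Mpo*, *Prtn3*, *Mmp9*, *Elane* and *Ltf* were named after their values were seen. Alternatives were DESeq2, other scalings and filters, the length offset, limma on log2 TPM with a pseudocount of 1 or 0.1, a replicate block, the skeletal muscle share, and each library left out. All libraries carry 1 batch label. The p-values of the fits weigh each difference against the spread between these mice, which is estimated with information shared across genes.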

Additional observations from a re-analysis of the deposited data

How the results depend on the processing

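With 3 libraries a genotype, the smallest exact permutation p is 0.1, and the calls rest on a spread shared across genes. The 840 genes called became 1796 with DESeq2, 359 with limma on log2(TPM + 1) without a filter, and 0 with the share of skeletal muscle counts as covariate, and lay between 311 and 922 with 1 library left out. That covariate moved *Cebpa* to -4.00 (adjusted p = 0.107) and *Cebpg* to 1.02 (adjusted p = 0.799), both no longer called, *Cebpd* to 0.034, *Ddit3* to 0.32 and *Cebpb* to 0.31 (adjusted p = 0.998 each). DESeq2 gave 0.79 for *Cebpd* and 0.65 for *Ddit3*, both called. With 1 library left out, *Cebpd* ranged from 0.70 to 0.97 and was called without Cebpa_ASKO replicate 3, and *Ddit3* ranged from 0.53 to 0.78 and was called without Cebpa_fl/fl replicate 2. *Cebpz* turned from -0.11 to 0.0057 with limma on log2(TPM + 1), with and without a filter, to 0.0056 on log2(TPM + 0.1), and to 0.082 with the muscle covariate. The summed level of the 7 members was -0.40 on the log2 scale in TPM and -0.56 in CPM. The cause of these moves was not tested. Each other alternative kept the direction and the call of every member that it could test, and *Cebpe* did not pass the TPM filter.

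Deviations of same-numbered libraries correlated at 0.066, 0.028 and -0.20 over 16069 genes. Those of differently numbered libraries correlated between -0.18 and 0.15. The deviations were centred within each genotype, so these values cannot decide whether the samples were paired. With a replicate block 370 genes were called, and *Cebpa* at -3.55 (adjusted p = 0.00639) and *Cebpg* at 1.35 (adjusted p = 0.0283) were still the called members.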

Other observations

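*Cebpz* and *Ddit3* were each divided among several transcripts. The coding Cebpz-201 carried between 42.2% and 53.3% of the gene's TPM in the 6 libraries, and Cebpz-204, annotated as a target of nonsense-mediated decay, between 32.5% and 44.7%, with overlap between the genotypes in both. The coding Ddit3-201 carried between 88.4% and 95.6% of its gene's TPM, and Cebpz-202 was listed at 0 in every library. *Cebpz* meets *Cebpzos* on the opposite strand over 171 exon bases, or 3.67% of its own, and *Ddit3* meets *Mars* over 68, or 3.97%.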
